A study of Mus musculus with 12 samples.

Results

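The genes described here are 10 transcripts of Paneth cell granules: Lyz1, Mmp7, Ang4, Itln1 and the alpha-defensin genes Defa3, Defa17, Defa22, Defa24, Defa26 and Defa30. They were chosen by name, as antimicrobial and processing genes of the Paneth cell, and all 10 were found among the 48526 gene rows of each count table by matching Ensembl identifiers without their version to gene symbols. The rule itself uses no measured value.

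Paneth cells sit at the base of the crypts of the small intestine, between the stem cells, and release antimicrobial proteins from secretory granules into the crypt lumen. Lysozyme cuts the cell wall of bacteria, and alpha-defensins are small cationic peptides, held together by disulfide bonds, that damage microbial membranes. In the mouse the defensins are made as inactive precursors and are cut to their active form by the protease matrilysin, the product of Mmp7. Wnt signalling through TCF/LEF factors is known to drive the maturation of Paneth cells, and EphB receptors hold them in place in the crypt.

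The libraries come from a dsRIP-seq experiment, in which RNA bound by an antibody against double-stranded RNA is sequenced beside the unselected RNA of the same preparation. The study asked whether the epithelium of mice that lack the lysine acetyltransferases Kat2a and Kat2b is enriched in double-stranded RNA. Epithelial cells of all types were released with EDTA from the proximal small intestine of 4 female mice, 3 months old. From each mouse 1 input library, 1 library pulled down with the antibody J2 and 1 pulled down with the antibody K1 were made, which gives 12 libraries in 6 groups of 2. The 2 DKO mice (KAT2A/KAT2B DKO) had been injected intraperitoneally on each of 4 days with tamoxifen at 100 mg/kg, dissolved in corn oil (90%) with ethanol (10%). The 2 control mice, labelled Control with no allele named, had received the same vehicle without tamoxifen. The epithelium was collected 2 days after the final dose. An effect of tamoxifen itself and an effect of the gene deletion therefore cannot be told apart in these groups. The driver of the deletion, the alleles and the mouse strain are not given in the sources used here. In whole epithelium, fewer Paneth cells and less RNA per Paneth cell cannot be told apart either.

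Input libraries held 10307281 to 11474107 gene-assigned counts and control pulldowns 13308021 to 16139531. The 4 DKO pulldowns had fewer, with totals from 2220291 to 5826361. Mitochondrial genes took 8.76% to 18.6% of the gene-assigned counts in the DKO pulldowns, against 1.40% to 4.33% in the other 8 libraries. In the DKO pulldowns 15.8% to 46.7% of the listed reads aligned to several places, against 5.54% to 8.05% in the other 8 libraries. Replicates differed by more than sampling noise, with a chi-square of 10.998 to 96.0 per degree of freedom, so no library repeated another. Kat2b was lower in both DKO animals in each kind of library, with 34.8 and 29.9 CPM, unscaled, in control input against 10.5 and 10.2 in DKO input. For Kat2a the same values were 21.5 and 19.9 against 7.47 and 13.2. Levels below are CPM, gene-assigned counts brought to a common library total with TMM scaling across the 12 libraries, and all adjusted p-values are from edgeR's quasi-likelihood test with Benjamini-Hochberg adjustment over all genes tested, with 0.05 as the threshold. The TMM factors of the 2 DKO J2 libraries were 0.674 and 1.21. Each replicate is an animal, and with 2 animals a group the tests measure the spread between these few animals.

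The 6 defensin genes lie on chromosome 8 (GRCm38), from Defa30 (start 21134642) to Defa24 (end 21735471), each with 2 exons, a transcript of 372 to 419 bases and a coding sequence of 279 bases. Their last coding exon holds the mature peptide's cysteines, and the sequences are shown because they separate Defa22 from the other 5. They are taken from GENCODE M21, and capitals mark the in-frame cysteine codons, of which each has 6.
Defa22: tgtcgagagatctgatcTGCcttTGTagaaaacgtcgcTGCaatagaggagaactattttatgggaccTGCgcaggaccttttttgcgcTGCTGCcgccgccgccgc
Defa24: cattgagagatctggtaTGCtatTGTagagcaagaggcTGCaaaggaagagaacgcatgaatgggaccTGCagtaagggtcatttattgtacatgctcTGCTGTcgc
Defa30: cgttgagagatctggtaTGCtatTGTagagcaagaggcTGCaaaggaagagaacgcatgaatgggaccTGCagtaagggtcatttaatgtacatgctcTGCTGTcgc
Defa17: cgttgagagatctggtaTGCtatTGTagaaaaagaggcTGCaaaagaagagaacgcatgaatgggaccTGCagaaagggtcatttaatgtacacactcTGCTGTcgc
Defa26: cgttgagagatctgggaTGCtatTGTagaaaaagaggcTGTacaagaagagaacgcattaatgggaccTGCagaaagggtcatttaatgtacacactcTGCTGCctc
Defa3 has the same last coding exon as Defa17, and the coding sequences of these genes are 100% identical. Defa24 and Defa30 are 98.57% identical over the coding sequence. Defa22 is 90.7% to 91.86% identical to the other members before the last coding exon and 66.36% to 68.18% identical within it. Its close relative is Defa21, which is not a member, at 99.28% over the coding sequence.

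Near-identical copies limit what a count of a single defensin gene means. In blastn alignments of at least 97% identity over at least 100 bases, copies covered 94.75% of the Defa24 transcript (Defa30), 99.75% of Defa30 (Defa24), 99.76% of Defa22 (Defa21) and 100% of Defa3, Defa17 and Defa26. The files list reads aligned to several places apart from the gene rows, so the defensin counts are uncertain as levels, and their split between copies is uncertain too. Lyz1 on chromosome 10 (117287797 to 117292868), Ang4 on chromosome 14 (51763878 to 51773590) and Itln1 on chromosome 1 (171518122 to 171535294) had no such copy. Mmp7 on chromosome 9 (7692090 to 7699585) shares 11.61% of its transcript with the overlapping gene AV064505. The counts were made without strand, so reads of Mmp7 and AV064505 cannot be told apart where these overlap. To lessen the effect of the split between copies, all 39 rows with a symbol starting with Defa were also summed into 1 feature. The sum is given beside the single genes below. Copies under other symbols, such as Gm15292 for Defa26, and reads aligned to several places stay outside it.

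RefSeq promoter windows (GRCm38.p6) were at hand for Defa22, Defa30, Lyz1, Mmp7, Ang4 and Itln1. The 250 bases before the RefSeq start are shown for the defensins, since the level of Defa22 fell in DKO while that of Defa30 did not pass the test. Capitals mark the TCF/LEF motif CTTTGAT read on either strand, here as its reverse complement ATCAAAG. The Defa22 window is chr8:21162027-21162276 and the Defa30 window chr8:21134400-21134649, each on the plus strand. The Defa22 window ends before the annotated gene, which starts at 21162277. The Defa30 window ends a few bases inside the annotated gene, which starts at 21134642.
Defa22: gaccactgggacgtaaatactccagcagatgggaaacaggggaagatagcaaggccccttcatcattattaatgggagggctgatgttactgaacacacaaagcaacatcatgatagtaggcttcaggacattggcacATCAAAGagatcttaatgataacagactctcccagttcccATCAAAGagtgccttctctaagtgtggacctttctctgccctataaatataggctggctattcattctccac
Defa30: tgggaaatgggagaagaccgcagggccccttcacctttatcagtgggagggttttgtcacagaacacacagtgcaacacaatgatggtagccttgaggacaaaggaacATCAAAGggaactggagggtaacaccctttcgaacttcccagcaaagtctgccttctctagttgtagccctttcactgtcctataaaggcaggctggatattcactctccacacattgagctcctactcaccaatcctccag
The motif was found 2 times in the Defa22 window, 1 time in the Defa30 window and 1 time in the window of a second Mmp7 start. This last window, chr9:7692091-7692340, lies inside the annotated Mmp7 gene, which starts at 7692090 on the plus strand. The window before the annotated start, chr9:7691840-7692089, held 0 matches. Of all 32851 windows 3.205% hold the motif. The related motif CTTTGAA was in none of the members' windows, against 4.456% of all. TATAAA was in the windows of Defa22, Defa30 and Mmp7, against 12.37% of all. A match describes these letters and is no evidence of binding.

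In control input the 10 genes together took 0.435% and 0.502% of the gene-assigned counts of the 2 animals. Per kilobase of the longest annotated transcript, which allows levels of different genes to be compared, Defa24 stood highest at 2011 and 2732 CPM per kb. Lyz1 (1001 and 1056) and Defa30 (975 and 1189) followed and overlapped each other. Defa17 (476 and 618) and Itln1 (446 and 494) overlapped as well. Below them came Defa22 (265 and 245), Ang4 (212 and 236), Defa3 (91.3 and 101), Defa26 (56.6 and 75.3) and Mmp7 (49.6 and 42.5), and neighbours in this lower part of the order did not overlap. The lysozyme gene of macrophages, Lyz2, was at 0.750 CPM ± 0.161 in control input (SD, n = 2), beside 1264 and 1333 CPM of Lyz1.

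In DKO input the order per kilobase changed. Defa24 remained at the top, with 1011 and 1916 CPM per kb, followed by Defa30 with 573 and 1093. Lyz1 (328 and 538), Ang4 (232 and 567), Defa17 (180 and 437) and Itln1 (177 and 395) then overlapped one another. Mmp7, last in control, stood at 62.0 and 77.8 CPM per kb, above Defa22 (58.6 and 41.7), Defa26 (20.6 and 45.2) and Defa3 (17.7 and 38.9). The second DKO animal was higher than the first for every member except Defa22. The share of all 10 genes was 0.172% and 0.373% of counts in DKO input, below both controls. No p-value is given for this sum over chosen genes, and an exact permutation test of 2 against 2 libraries cannot go below 0.3333.

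**Figure D1:**
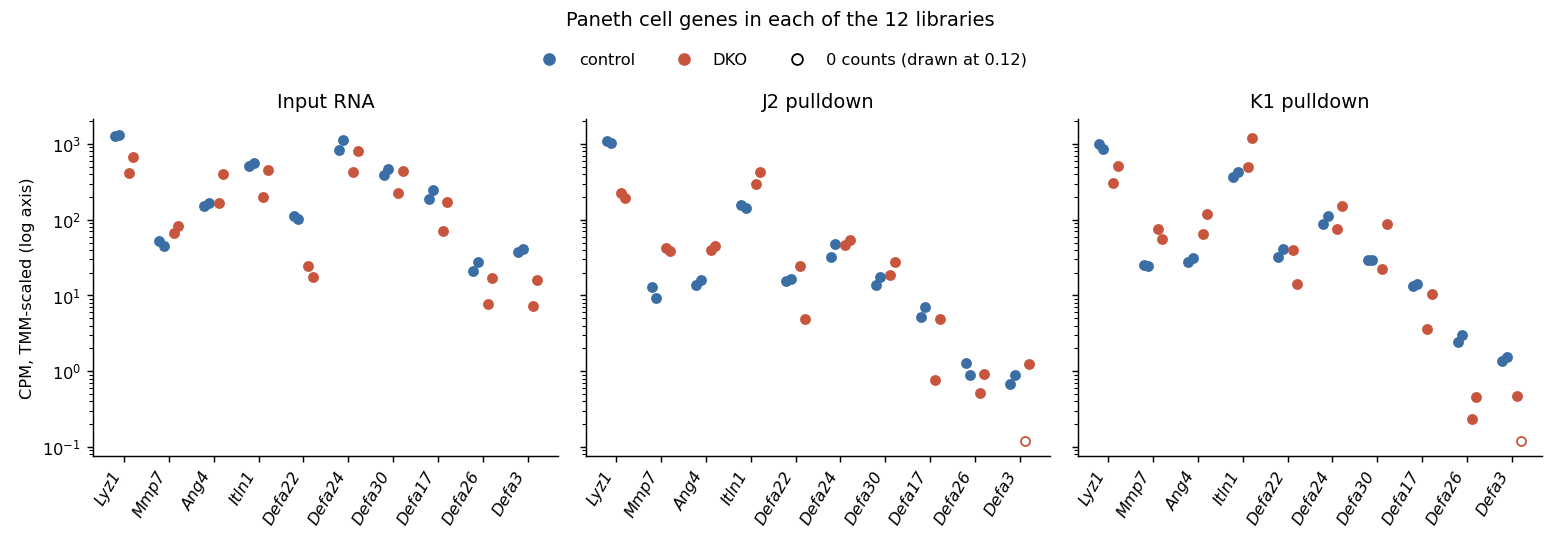
Level of each of the 10 genes in every library, as TMM-scaled CPM on a log axis, with input, J2 and K1 in separate panels; each point is 1 animal, blue for control and red for DKO, and open points are libraries with 0 counts. In input, Defa22 at 24.6 and 17.5 CPM in DKO lies well under its controls at 111 and 103 CPM, while Mmp7 is above its controls, and most defensins lie far lower in the pulldown panels than in the input panel.

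Against control, Lyz1, Defa3 and Defa22 fell in DKO input and Mmp7 rose. These 4 of 10 members passed the test, where 35.9% of the 15088 genes tested did, so the share is near that of all genes. The median log2 fold change of the members was -0.73, against 0.00 for all genes. Lyz1 had 1264 and 1333 CPM in control and 414 and 679 CPM in DKO, and the groups did not overlap. It fell by 1.21 on the log2 scale (SE 0.24, adjusted p 0.00681), a level 2.31-fold lower. Mmp7, the enzyme that activates the defensins, had 53.0 and 45.3 CPM in control and 66.2 and 83.1 CPM in DKO. It rose by 1.56-fold (log2 0.64, SE 0.15, adjusted p 0.0154). The Mmp7 call was lost without TMM (log2 0.52, adjusted p 0.0688), without the second control animal (0.53, 0.0856) and with all 12 libraries in a single fit (0.60, 0.169). With all 12 libraries in a single fit the Lyz1 call was lost as well (log2 -1.25, adjusted p 0.0765).

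Within the defensins the decline was uneven. Defa22 had 111 and 103 CPM in control and 24.6 and 17.5 CPM in DKO. It fell by 2.31 on the log2 scale (SE 0.17, adjusted p 1.82e-04), 4.95-fold lower, and both DKO animals were far under both controls. Defa3 had 37.4 and 41.5 CPM in control against 7.24 and 15.9 CPM in DKO and fell by 1.72 (SE 0.31, adjusted p 0.00467). Defa17, whose coding sequence is that of Defa3, had 189 and 245 CPM in control against 71.5 and 174 CPM in DKO, and its log2 fold change of -0.78 (SE 0.36) did not pass (adjusted p 0.131). Defa24, the most abundant member per kilobase, had 843 and 1145 CPM in control and 424 and 803 CPM in DKO (log2 -0.66, SE 0.30, adjusted p 0.126). The DKO values of Defa17 and Defa24 were below their controls in both animals. Defa30 had 388 and 473 CPM against 228 and 435 CPM, which overlapped (log2 -0.34, SE 0.28, adjusted p 0.385). Defa26 had 21.1 and 28.0 CPM against 7.66 and 16.8 CPM (log2 -0.95, SE 0.33, adjusted p 0.0578). Summed into 1 feature, all Defa rows changed by -0.81 on the log2 scale (SE 0.29) and did not pass (adjusted p 0.0659). More members passed without the first control animal or without the second DKO animal, fits that leave 1 library in a group. With an animal left out, only Defa30 changed sign (log2 -0.88 to 0.062).

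Ang4, which encodes a microbicidal ribonuclease of Paneth cells, had 150.1 and 167 CPM in control input and 164 and 402 CPM in DKO. Its groups overlapped, and its log2 fold change of 0.88 (SE 0.36) did not pass (adjusted p 0.0934). Itln1, which encodes a lectin that binds microbial sugars and is made by goblet cells as well, had 509 and 564 CPM in control and 202 and 451 CPM in DKO (log2 -0.67, SE 0.33, adjusted p 0.147). Neither gene therefore had a call in input. The second DKO animal had the higher value of both.

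Ratios within a library do not depend on the scaling between libraries, and they set the members beside each other. Per count of Defa24, Defa22 had 0.132 and 0.0897 counts in control input and 0.0580 and 0.0218 in DKO. For Lyz1 per Defa24 the control ratios of 1.50 and 1.16 stood above the DKO ratios of 0.978 and 0.846. Ang4 per Defa24 went the other way, from 0.178 and 0.146 to 0.388 and 0.500. So did Mmp7 per Defa24, from 0.0629 and 0.0396 to 0.156 and 0.104. Defa30 per Defa24 was higher in DKO as well, with 0.461 and 0.413 in control and then 0.539 and 0.542. In these ratios the groups did not overlap. They did overlap for Itln1 per Defa24 (0.603 and 0.492 against 0.477 and 0.561) and for Defa17 per Defa24 (0.224 and 0.214 against 0.169 and 0.216). The ratios are descriptions of 2 animals a group and were not tested. Groups of 2 can lie apart without a difference between them, and no share of such ratios over all genes was taken.

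**Figure D2:**
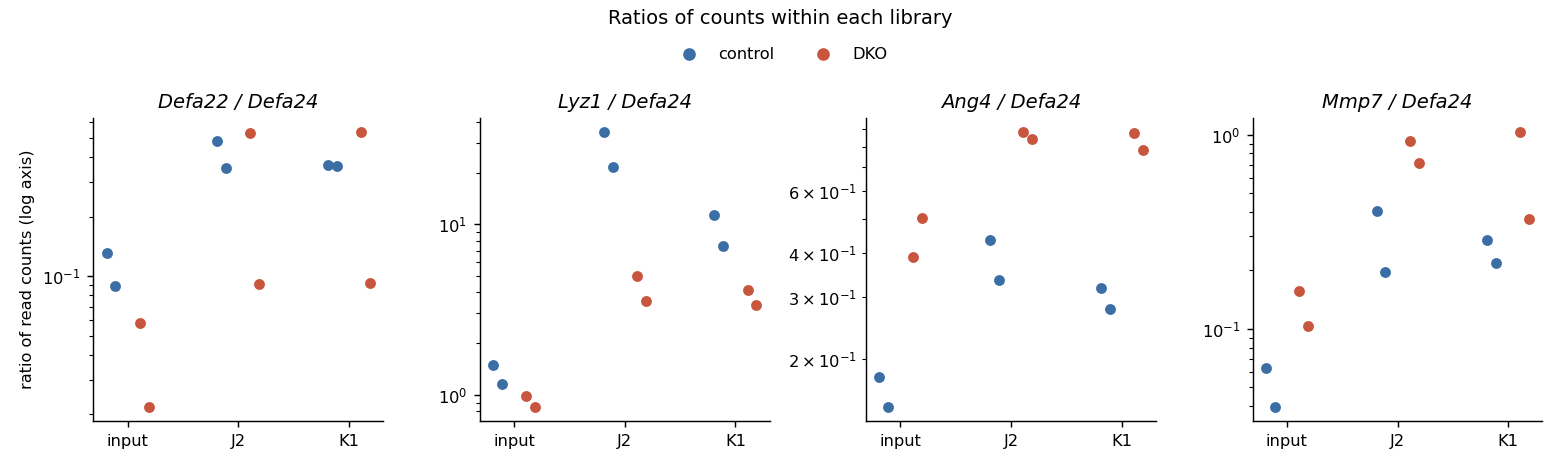
Counts of Defa22, Lyz1, Ang4 and Mmp7 divided by the count of Defa24 in the same library, on log axes that differ between panels; each point is 1 animal, blue for control and red for DKO, for input, J2 and K1. In input, Defa22 and Lyz1 are lower and Ang4 and Mmp7 higher relative to Defa24 in both DKO animals, and Lyz1 per Defa24 rises from 1.50 and 1.16 in control input to 34.7 and 21.8 in control J2.

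Other genes of the Paneth programme, listed by role, moved in both directions in input, where 35.9% of all genes passed. Of the 33 other rows with a Defa symbol 8 could be tested and 6 fell, among them Defa29 (log2 -3.65, adjusted p 3.65e-05), Defa2 (-2.88, 0.00170) and Defa21 (-2.47, 5.67e-05), the near-copy of Defa22. Of 10 other secretory genes tested, 3 rose and 1 fell. Pnliprp2, a lipase, rose by 1.46 on the log2 scale (adjusted p 0.00414) and Pla2g2a, the secreted phospholipase that kills Gram-positive bacteria, by 2.14-fold (0.00498). Fgfr3, a growth factor receptor, fell by 2.47 (adjusted p 2.58e-04). Of 12 regulators of Paneth fate, 3 rose and 3 fell. Fzd5, the Wnt receptor needed for Paneth maturation, fell by 0.86 (adjusted p 0.00172) and Ephb3, the receptor that keeps Paneth cells at the crypt base, fell by 0.68 (0.0219). Tcf7l2, a TCF factor, rose by 0.62 (adjusted p 0.0235). Of 5 niche ligands, Tgfa rose (log2 0.58, adjusted p 0.0132). Of 10 granule and sensing genes tested, 2 rose and 1 fell, namely Nod2, a sensor of bacterial wall fragments (2.47, adjusted p 0.00138), Myd88, an adaptor of Toll-like receptors (1.36, 3.89e-04), and the potassium channel gene Kcnn4 (-1.28, 0.00480). The shares called, 4 of 10 secretory genes, 6 of 12 regulators, 1 of 5 ligands and 3 of 10 granule and sensing genes, lie around that of all genes.

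Markers of other epithelial cells moved beside these genes, in a comparison where 17.1% of all genes tested passed as lower and 18.8% as higher. Of 7 stem cell markers 6 fell in DKO input, and the summed level went from between 608 and 615 CPM to between 131 and 199 CPM, with Olfm4 (log2 -3.04), Smoc2 (-2.63) and Lgr5 (-1.82) among those that fell. Of 8 proliferation markers 7 fell, with a sum of 383 to 445 CPM in control and 117 to 157 CPM in DKO, Mki67 (-2.07), Cdk1 (-1.84) and Top2a (-1.82) among them. Goblet markers summed to 10503 to 11649 CPM in control and 10407 to 12601 CPM in DKO, with 4 of 8 higher, Spink4 (1.14) and Clca1 (0.80) among them, and Ccl6 lower (-2.53). Enterocyte markers summed to 27453 to 31014 CPM against 24374 to 32585 CPM, but single genes within that sum moved far apart. Lct, the lactase gene, fell from 2634 CPM ± 608 to 64.5 CPM ± 6.78 (SD, n = 2, log2 -5.31), and Sis (-1.36) and Fabp2 (-0.72) fell too, while Anpep was at 7540 CPM ± 269.8 in control and 10857 CPM ± 2368 in DKO without passing. Leukocyte markers were at 57.0 to 67.4 CPM against 40.0 to 44.0 CPM, with S100a8 at 0 in control and 3 of 7 tested lower (Cd3g -1.12, Cd3e -0.97, Cd8a -0.73) and 1 higher, and those of mesenchyme and endothelium at no more than 6.16 CPM in any input library. The part of these changes in the values of the 10 genes was not tested.

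Pulldown against input asks how far each transcript was recovered by the antibodies. In control mice J2 recovered 9 of the 10 transcripts less well than the average RNA. These 9 passed the test as lower, against 14.6% of the 15923 genes tested. The members' median log2 value was -3.93, against -0.07 for all genes. Defa3 and Defa17 were the lowest. Defa3 had 10 and 11 counts in J2 against 471 and 577 in input (log2 -5.63, SE 0.63, adjusted p 0.00204), and Defa17 had 77 and 88 counts against 2379 and 3406 (-5.13, SE 0.68). Defa30 (-4.77, SE 0.46), Defa24 (-4.64, SE 0.50) and Defa26 (-4.46, SE 0.48) were close to each other, with 31.9 and 47.4 CPM of Defa24 left in J2 of the 843 and 1145 CPM in input. Defa22 was lowered less, to 15.3 and 16.7 CPM from 111 and 103 CPM (log2 -2.73, SE 0.55, adjusted p 0.00943). All Defa rows summed were 16.4-fold lower in J2 than in input (log2 -4.03, SE 0.51, adjusted p 0.00259).

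The genes outside the defensin family differed from this and from each other. Ang4 fell from 150.1 and 167 CPM to 13.8 and 15.9 CPM in control J2 (log2 -3.41, SE 0.44, adjusted p 0.00274), Mmp7 from 53.0 and 45.3 CPM to 13.0 and 9.30 CPM (-2.14, SE 0.26, 0.00229) and Itln1 from 509 and 564 CPM to 159 and 144 CPM (-1.82, SE 0.45, 0.0196). Lyz1 was the exception, with 1106 and 1035 CPM in J2 beside 1264 and 1333 CPM in input (log2 -0.27, SE 0.41, adjusted p 0.647). Lyz1 per Defa24 accordingly read 34.7 and 21.8 in control J2. The fold changes of the 10 genes ranged from -5.63 to -0.27. The transcripts of the defensins, 372 to 419 bases long, are shorter than those of the other 4, 709 to 1263 bases long. The part of length by itself in this spread was not tested. With offsets for transcript length and GC content and the animal as block, 8 members passed as lower, Itln1 did not (-1.22, adjusted p 0.0538) and Lyz1 had the other sign (0.33, 0.610). The members' calls were lost without the first or without the second control animal, though none changed sign. In these fits the remaining control library of each kind is assumed to vary like the DKO libraries. Without the first control animal the calls were lost over all genes too, so the loss in that fit was not particular to the members. For the fit without the second, the calls over all genes are not given here.

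With K1, which was set against the same input libraries, the defensins were low as well. In control, 8 members were lower in K1 than in input, against 20.1% of the 15908 genes tested, with a median of -2.88 for the members and 0.00 for all genes. Defa3 was at -4.83 (SE 0.42, adjusted p 1.20e-04), Defa17 at -4.07, Defa30 at -3.94, Defa24 at -3.38, Defa26 at -3.27 and Defa22 at -1.63 (SE 0.34, adjusted p 0.00425, and -1.55, 0.0566 with all 12 libraries in a single fit). Ang4 was at -2.50 (SE 0.43) and Mmp7 at -1.05 (SE 0.22, adjusted p 0.00404), which did not pass with offsets for length and GC content and the animal as block (-0.46, 0.0893). Lyz1, with 1004 and 848 CPM in K1 (log2 -0.57, SE 0.36, adjusted p 0.234), and Itln1, with 372 and 424 CPM (-0.51, SE 0.46, 0.402), did not pass. All Defa rows summed were 8.05-fold lower (log2 -3.01, SE 0.40, adjusted p 5.56e-04). Without the first or the second control animal fewer members passed, though none changed sign. Without the second, far fewer of all genes passed as well.

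In DKO mice 5 of the 6 defensins were again far lower in the pulldowns, on far fewer counts. Against input, 8 members were lower in J2, where 13.4% of all genes were. In K1, 6 members were lower, against 21% of all genes, and 1 was higher, against 14.6%. Defa24 had 181 and 176 counts in J2 (46.1 and 54.3 CPM against 424 and 803 CPM in input, log2 -3.58, SE 0.48, adjusted p 0.00368) and was at -2.53 in K1 (SE 0.43, adjusted p 0.00223). Defa30 was at -3.81 in J2 and -2.70 in K1 and Defa17 at -5.45 and -4.35, and all 4 passed. Defa26 had 2 and 3 counts in J2 and 1 and 1 in K1, and Defa3 had 0 and 4 in J2 and 2 and 0 in K1. Over both animals the input level of Defa26 was 18.0 times that of J2 (exact 95% counting interval 7.62 to 55.7) and 40.2 times that of K1 (11.1 to 334). For Defa3 these ratios were 21.3 (8.22 to 78.5) and 38.1 (10.5 to 316). The intervals cover counting error only.

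Defa22 differed from the other defensins among the members in DKO. In the first DKO animal it had 24.6 CPM in input, 24.4 in J2 and 39.8 in K1, and in the second 17.5, 4.93 and 14.0. It did not pass against input for J2 (log2 -0.47, SE 0.55, adjusted p 0.546) or for K1 (0.33, SE 0.36, 0.503). Of the 8 other defensins tested, 4 were lower than input in DKO with each antibody, with medians of -4.78 for J2 and -3.14 for K1. Defa21 and Defa29 lay nearer to input. Defa21, the near-copy of Defa22, had mean levels of 21.1 CPM in input, 12.3 in J2 and 16.8 in K1. For Defa29 these means were 7.96, 7.66 and 8.86 CPM. Itln1 had 297 and 429.7 CPM in J2 against 202 and 451 CPM in input (log2 0.18, SE 0.44, adjusted p 0.781). In K1 it had 502 and 1217 CPM and passed as higher (1.32, SE 0.46, 0.0483), a call lost without TMM (1.06, 0.126), in the fit of all 12 libraries (1.40, 0.0604), after thinning to the smallest library (1.34, 0.0507) and without the first or second control animal (0.143 and 0.133).

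Ang4 was lower than input in DKO with both antibodies, at -2.69 for J2 (SE 0.43, adjusted p 0.00616) and -1.72 for K1 (SE 0.42, 0.0110). Lyz1 had 228 and 192 CPM in J2 and 305 and 513 CPM in K1 against 414 and 679 CPM in input. It passed for J2 (log2 -1.35, SE 0.42, adjusted p 0.0475) and not for K1 (-0.50, SE 0.36, 0.299). Mmp7 had 42.5 and 38.8 CPM in J2 against 66.2 and 83.1 CPM (log2 -0.85, SE 0.26, adjusted p 0.0426) and in K1 76.6 and 56.1 CPM (-0.25, SE 0.22, 0.406). With the animal as block neither J2 call held, with adjusted p 0.0893 for Lyz1 and 0.0550 for Mmp7. Fewer members passed for J2 in DKO without the first or the second control animal. Without the first, far fewer of all genes passed as well.

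**Figure D3:**
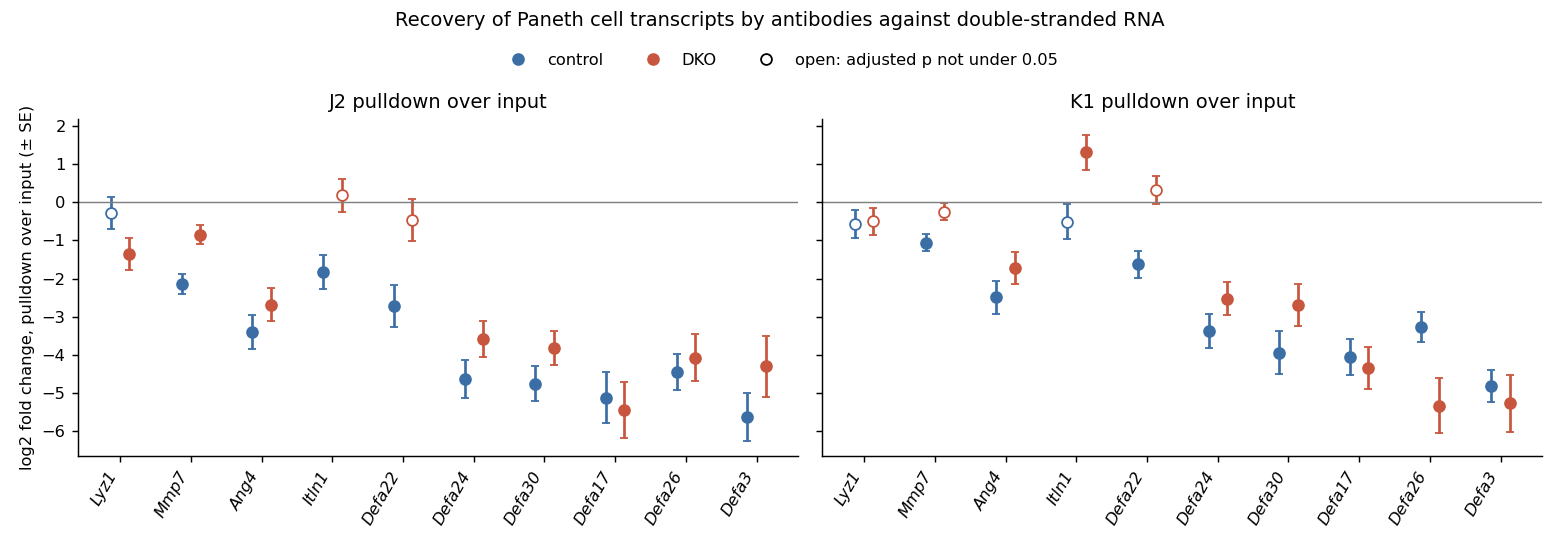
Log2 fold change of pulldown over input for each gene, J2 at left and K1 at right, in control (blue) and DKO (red), with bars of 1 SE; filled points passed the adjusted p threshold of 0.05 and open points did not. The defensins other than Defa22 lie between -5.63 and -2.53 in all 4 comparisons, while Lyz1 has open points at -0.27, -0.57 and -0.50 and a filled point at -1.35.

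Within the pulldowns, Mmp7 and Ang4 rose in DKO against control with both antibodies. In J2, 2 of the 9 members tested passed, against 12.2% of 13181 genes, and Defa3 had too few counts to be tested. Mmp7 rose from 13.0 and 9.30 CPM to 42.5 and 38.8 CPM (log2 1.93, SE 0.36, adjusted p 0.0369) and Ang4 from 13.8 and 15.9 CPM to 40.5 and 45.6 CPM (1.60, SE 0.33, 0.0426). In K1, 3 of 10 members passed, against 27.1% of 12888 genes. Mmp7 rose there from 25.3 and 24.7 CPM to 76.6 and 56.1 CPM (log2 1.59, SE 0.26, adjusted p 0.00649) and Ang4 from 28.0 and 31.4 CPM to 65.0 and 118 CPM (1.84, SE 0.37, 0.0134). The groups did not overlap in any of these 4 cases. The J2 calls were lost without TMM (adjusted p 0.0684 for Mmp7 and 0.101 for Ang4), that of Ang4 after thinning to the smallest library (1.73, 0.0571), and both without the first or second control animal (0.392 to 0.635), and the K1 call of Mmp7 without the first or second control animal (0.0755 and 0.0905).

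Lyz1 went from 1106 and 1035 CPM in control J2 to 228 and 192 CPM in DKO J2. Its groups lie 4.90-fold apart without overlap, and the log2 fold change of -2.29 (SE 0.53) missed the threshold at an adjusted p of 0.0509. It passed in DESeq2 (8.44e-05) and without TMM (0.0319). In K1 it went from 1004 and 848 CPM to 305 and 513 CPM (log2 -0.96, SE 0.41, adjusted p 0.124), and passed in DESeq2 (0.0356) and without TMM (0.0459). Itln1 was higher in both DKO animals, with 297 and 429.7 against 159 and 144 CPM in J2 (log2 1.35, SE 0.46, adjusted p 0.107) and 502 and 1217 against 372 and 424 CPM in K1 (1.35, SE 0.51, 0.0857), without passing.

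Of the defensins, Defa26 passed as lower in K1 on 39 and 40 counts in control and 1 and 1 in DKO. The control level was 8.55 times that of DKO (exact 95% counting interval 2.29 to 71.9), and the call (log2 -2.88, SE 0.80, adjusted p 0.0362) was lost in DESeq2 (0.177), without either control animal (0.365 and 0.440) and without the first DKO animal (0.106). Defa24 in J2 had 31.9 and 47.4 CPM in control and 46.1 and 54.3 CPM in DKO (log2 0.41, SE 0.36, adjusted p 0.444). Defa22, which fell in input, had 15.3 and 16.7 CPM in control J2 and 24.4 and 4.93 CPM in DKO J2 (log2 -0.11, SE 0.69, adjusted p 0.927) and was at -0.25 in K1 (SE 0.41, 0.690). The other defensins tested, Defa17 and Defa30 with both antibodies, Defa24 and Defa3 in K1 and Defa26 in J2, did not pass, with log2 values from -2.06 to 1.12. All Defa rows summed were at -0.11 in J2 (SE 0.34, adjusted p 0.839) and -0.03 in K1 (SE 0.35, 0.954).

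The DKO pulldowns of the 2 animals differed in the RNA levels of markers of other cell types. In DKO input the sums were 24374 to 32585 CPM for enterocyte and 10407 to 12601 CPM for goblet markers. Enterocyte markers summed to 5830 and 27721 CPM in DKO J2, against 16185 to 18496 CPM in control J2, and to 9959 and 33267 CPM in DKO K1. Goblet markers summed to 2309 and 13075 CPM in DKO J2 and to 6575 and 19950 CPM in DKO K1. Markers of mesenchyme and endothelium reached 32.7 to 172 CPM in DKO J2, with Cdh5 at 0, against 3.63 to 19.2 CPM in control J2. In DKO K1 they reached 79.6 to 201 CPM, with Des at 0, against 3.08 to 38.5 CPM in control K1. Of 4 tested in K1 1 was higher in DKO, against 13.1% of all genes. Exocrine pancreas markers were at 6.11 to 6.78 CPM in DKO J2 against 1.16 to 2.02 CPM in control J2, and at 5.88 to 12.6 CPM in DKO K1 against 2.40 to 3.35 CPM in control K1, where 1 of 2 tested was higher; Amy2b and Prss1 were at 0 in all of these. The part of these values, and of depth and of reads aligned to several places, in the pulldown results was not tested.

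Other genes of the Paneth lists also had calls between the genotypes within the pulldowns. Of 9 other secretory genes tested in J2 3 rose in DKO, against 12.2% of all genes called, and in K1 3 rose and 1 fell, against 27.1%. Pla2g2a rose by 5.46 in J2 (SE 1.13, adjusted p 0.0426) and by 4.83 in K1 (SE 0.70, 0.00479), and Pnliprp2 by 2.27 and 2.44 (0.0367 and 0.0110). Fgfr3 fell in K1 (-1.45, 0.0332). Of 12 fate regulators 1 rose in J2, Spdef, a factor of secretory cells (1.69, adjusted p 0.0492), and in K1 3 rose and 2 fell, with Fzd5 at -1.48, Spdef at 1.46 and Xbp1, a factor of secretory protein folding, at 1.43. Of 10 granule and sensing genes Nod2 rose in J2 (2.41, adjusted p 0.0498), and in K1 2 rose and 1 fell, with Myd88 at 1.50 and Ticam1 at -0.97. Of 2 other defensins that could be tested, Defa29 fell in K1 (-2.21, adjusted p 0.00504). The niche ligands had a median of 0.52 in J2 (5 tested) and 0.21 in K1 (4 tested), without a call.

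Against input, the other defensins were low in control as the members were. All 8 tested were lower with J2 and all 8 with K1, among them Defa5 (-4.64 and -3.68), Defa21 (-2.60 and -1.76) and Defa29 (-2.03 and -1.19), where 14.6% and 20.1% of all genes were lower. Of 10 other secretory genes 5 were lower with J2 and 5 lower and 1 higher with K1, led by Clps, at -4.23 and -3.51. Of all genes 19.7% were higher with K1. In DKO 4 of the 8 other defensins were lower with each antibody, and 2 of 10 secretory genes, Clps and Mptx2. Of all genes 13.4% were lower there with J2 and 21% with K1, so the count of secretory genes is near that share.

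**Figure D4:**
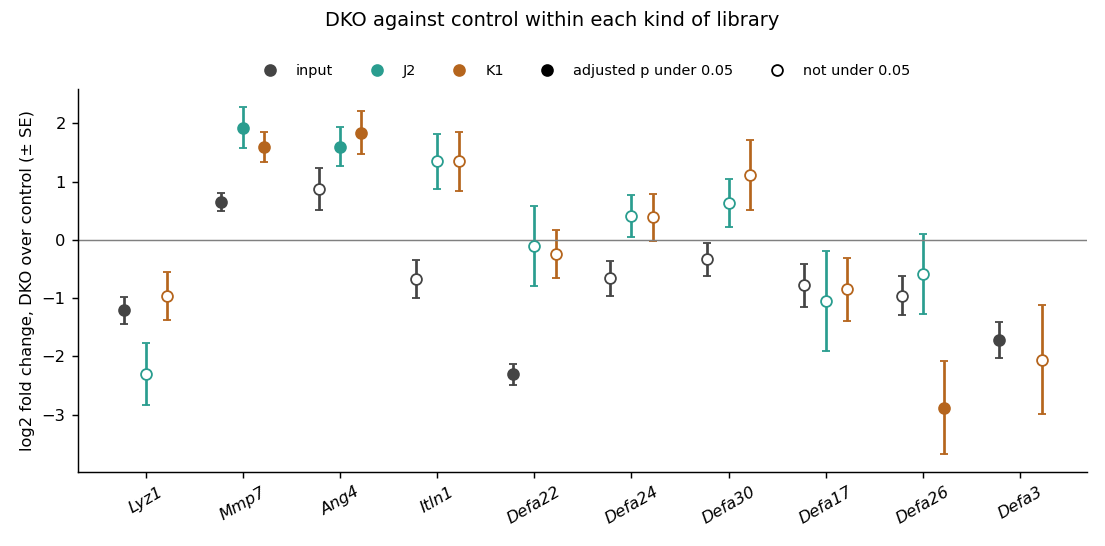
Log2 fold change of DKO over control for each gene in input (grey), J2 (green) and K1 (orange), with bars of 1 SE; filled points passed the adjusted p threshold of 0.05 and open points did not, and Defa3 was not tested in J2. Mmp7 is above 0 with a filled point in all 3 kinds of library, from 0.64 in input to 1.93 in J2, while Defa22 is at -2.31 in input and at -0.11 and -0.25 in J2 and K1.

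Whether recovery itself differed between the genotypes was tested as the difference of the pulldown over input values, DKO minus control. For J2 no member passed, against 2.71% of all genes, and 3 had an unadjusted p under 0.05, namely Defa22 (2.26, SE 0.76, adjusted p 0.121), Itln1 (2.01, SE 0.62, 0.105) and Mmp7 (1.29, SE 0.36, 0.0834). DESeq2 called 2 of them, Itln1 and Mmp7 (adjusted p 0.0173 and 0.0370). The J2 differences of Defa3 (1.33, SE 1.25), Defa24 (1.06, SE 0.62), Defa30 (0.95, SE 0.56), Ang4 (0.72, SE 0.58), Defa26 (0.38, SE 0.90) and Defa17 (-0.32, SE 0.91) did not pass. For K1, Defa22 passed with a difference of 1.96 (SE 0.50, adjusted p 0.0491), where 5.47% of all genes did. Its same-animal K1 minus input values, -1.78 and -1.32 for control mice, stood at 0.69 and -0.31 for DKO mice, so the groups did not overlap. The call was lost with DESeq2 size factors (adjusted p 0.0504), after thinning (0.103), in the fit of all 12 libraries (0.250) and without the first or second control animal (0.645 and 0.366). Itln1 had a K1 difference of 1.83 (SE 0.65, adjusted p 0.126) and passed with the animal as block (1.80, 0.00645). Defa30 (1.25, SE 0.74), Defa24 (0.86, SE 0.58), Mmp7 (0.81, SE 0.31), Ang4 (0.78, SE 0.58), Defa17 (-0.29, SE 0.68), Defa3 (-0.44, SE 1.13) and Defa26 (-2.07, SE 1.04) did not pass for K1. The defensin sum did not pass, with 0.70 for J2 (SE 0.64, adjusted p 0.515) and 0.60 for K1 (SE 0.53, 0.540), nor did Lyz1, with -1.08 (SE 0.58, 0.279) and 0.07 (SE 0.50, 0.959).

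J2 and K1 were compared directly within a genotype. In control 0 of 14285 genes (0%) passed in edgeR, 1807 had an unadjusted p under 0.05 and DESeq2 called 215, of which no member. The log2 J2 minus K1 values in control were -1.36 for Itln1, -1.31 for Defa24, -1.24 for Defa26, -1.15 for Defa22, -1.13 for Mmp7, -1.11 for Defa17, -0.96 for Ang4, -0.87 for Defa30 and -0.84 for Defa3, and Lyz1 alone was above 0 (0.25). With the animal as block 27.7% of all genes passed, and 8 members were lower in J2 than in K1, with adjusted p from 0.00190 for Defa24 (-1.32) to 0.0425 for Defa26, and Lyz1 and Defa3 did not pass. In DKO 0 genes (0%) passed, 529 had an unadjusted p under 0.05 and DESeq2 called 2, of which no member. Defa17 and Defa24 were at -1.26 and -1.17, Itln1 and Defa30 both at -1.24, Ang4 at -1.09, Lyz1 at -0.96, Defa22 at -0.89 and Mmp7 at -0.70, while Defa3 (0.91, on 0 and 4 against 2 and 0 counts) and Defa26 (1.13, on 2 and 3 against 1 and 1) rest on few counts.

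Across the 12 libraries the members did not form a single profile. The Pearson correlation of log2 CPM with the mean of the other 9 members was 0.98 for Defa24, 0.95 for Defa17 and Defa30, 0.91 for Defa26, 0.87 for Defa3 and 0.78 for Ang4. It was 0.56 for Defa22, 0.47 for Mmp7, 0.40 for Lyz1 and 0.29 for Itln1. Of 9718 genes with a mean of at least 50 counts, those most like the members' mean profile were Clps (0.97), which encodes colipase and is known from Paneth cells, and then Tmem258 (0.97), Atp5e (0.97), Rpl27 (0.97) and Rps26 (0.97), which are expressed in most cells. These correlations are over 12 libraries that share kind, animal and depth, and are given as a description.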

How the data were processed

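RNA was measured in 12 libraries, and the deposited files hold raw read counts per gene, 1 file per library, made without strand. Per the submitters' processing notes, the tools named are FastQC, STAR 2.7.10b, SAMtools 1.17, UMI-tools 1.1.4, HTSeq 2.0.2, DESeq2 1.40.1, edgeR 3.42.2 and deepTools 3.5.2, with the builds mm10 and GRCm38.p4 and with no role or order given. Library preparation used random hexamers, ribosomal RNA depletion and molecular identifiers, per the labels' protocols. No spike-in is named, so scaling removes any difference in the total RNA pulled down. Rows that name no gene entered neither library sizes nor tests. Of the listed reads, 25.0% to 27.0% fell outside genes in input and 10.6% ± 0.533 in DKO J2 (SD, n = 2), and 5.54% to 46.7% per library aligned to several places. No column of per-sample values was left unmapped.

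Of 48526 gene rows, 48058 matched GENCODE M21 (GRCm38) without the version and 40606 with it. The test was edgeR's quasi-likelihood test (edgeR 4.0.16, R 4.3.3) after TMM normalization. Low genes were removed by filterByExpr (minimum 10), and p-values were adjusted by Benjamini-Hochberg over every gene tested, at a threshold of 0.05. DKO and control were compared in fits of 4 libraries of a kind. Pulldown against input and the difference of recovery were tested in fits of the 8 libraries of an antibody and input, and J2 against K1 in a fit of the 8 pulldowns. Log2 CPM used a prior count of 2. Transcripts were compared with blastn 2.17.0+, and alternatives included DESeq2 1.42.0.

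The 10 genes and the lists beside them were chosen with earlier results of these data known. All 10 are named in every comparison. Of the other lists, up to 3 genes past the threshold with the largest fold change and a mean of at least 50 counts are named, for every list in DKO against control in input and for the Paneth lists in the DKO against control pulldowns. Elsewhere these lists are given by counts with examples, or left out. Libraries of the same animal deviated together (Pearson correlation of deviations 0.21 to 0.49 in all 6 pairs). The labels give them the same animal number, so the animal pairs pulldown and input. The reported fits have no term for the animal, and fits with the animal as block are given as alternatives. Counting intervals cover counting error only.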

Additional observations from a re-analysis of the deposited data

Results flagged for a closer look

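For Defa22 the effect of genotype passed the test of a difference between K1 and input. Its K1 pulldown over input difference, DKO minus control, was 1.96 on the log2 scale (SE 0.50, adjusted p 0.0491 by edgeR's quasi-likelihood test). In input the gene fell by 2.31, and within K1 its fold change was -0.25. The values of the single animals and the settings that end the call are given with the result above. Of 8 other defensins tested for the K1 difference, 1 also passed as higher and 5 were positive. Over all genes 1.37% passed as higher. Copies in Defa21 cover 99.76% of the Defa22 transcript, so the counts cannot be fully assigned to Defa22 alone.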

How the results depend on the processing

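Of 1355 fold changes of the members recomputed under the alternatives, 1119 kept their direction and their side of the threshold, 77 lost the call, 122 gained it and 37 changed sign; of the 42 that passed in the reported fits none of these changed sign. The number of members that passed in DKO against control in input (4) became 9 without the low-count filter, 2 with all 12 libraries in a single fit, and 9 with the replicate number as block, also with length and GC correction; same-numbered DKO and control animals are different mice, with deviations correlated at 0.03, -0.09 and -0.10, so that block has no basis in the design. In J2 (2) it became 1 without TMM, and in K1 (3) 6 without the filter. For the J2 difference of recovery (0) it became 2 in DESeq2 and 1 without the filter. For the K1 difference (1) it became 2 in DESeq2, 3 without the filter, 2 with the animal as block with or without length and GC correction, and 0 with DESeq2 size factors, all 12 libraries in a single fit or thinning. For J2 against K1 in control (0) the animal block gave 8 and with length and GC correction 6. Beside the changes given with the results, the animal block changed no other call of a member in the paired comparisons.

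Leaving out each animal in turn, the number of members that passed ran from 4 to 9 for DKO against control in input, 0 to 6 in J2 and 1 to 6 in K1, from 0 to 10 for J2 against input in control and 3 to 9 in DKO, from 3 to 10 for K1 in control and 6 to 8 in DKO, from 0 to 7 and 0 to 4 for the differences of J2 and K1, and from 0 to 8 and 0 to 4 for J2 against K1 in control and DKO. An arm left with 1 library is assumed to vary like the other group. Sign changes without an animal, as the lowest and highest values, were in DKO against control Defa30 in input (-0.88 to 0.062), Defa22 in J2 (-1.62 to 0.67), and in K1 Defa22 (-1.13 to 0.29), Defa24 (-0.27 to 0.84) and Defa30 (-0.26 to 1.83). In DKO pulldown against input they were Itln1 (-0.18 to 0.59) and Defa22 (-1.93 to 0.020) for J2, and Mmp7 (-0.72 to 0.12) and Defa22 (-0.47 to 0.61) for K1. In the differences they were Defa3 (-3.76 to 1.97), Defa17 (-1.38 to 0.013) and Defa26 (-0.25 to 0.84) for J2, and Lyz1 (-0.14 to 0.21) and Defa3 (-5.81 to 0.84) for K1, and for J2 against K1 in DKO Defa3 (-5.42 to 6.69).

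Other sign changes were small or uncalled, except where all Defa rows were summed. The sum replaced Defa24 and Defa30 by -0.11 in J2 and -0.033 in K1 (DKO against control), Defa22 by -2.41 (K1 against input in DKO), Defa17 by 0.70 (J2 difference), Defa3, Defa17 and Defa26 by 0.60 (K1 difference) and Defa3 and Defa26 by -1.03 (J2 against K1 in DKO). Without TMM, Itln1 was -0.089 for J2 and Defa22 -0.036 for K1 against input in DKO; without the filter Itln1 was -0.061 and after thinning Defa22 -0.038. With length and GC correction and the animal block, Lyz1 was 0.33 for J2 in control and 0.15 for K1 in DKO, Mmp7 0.43 for K1 in DKO, Defa24 -0.14 (DKO against control in K1) and Defa26 -0.051 (J2 difference). After thinning Defa17 was 0.50 and 0.26 in the differences. The summed share of the members, DKO minus control, was -0.196 percentage points in input (-0.297 to -0.0952 without an animal), -0.0530 in J2 (-0.0776 to -0.0283) and -0.00415 in K1 (-0.0709 to 0.0626, with 0.00286 without the first control animal). For the 6 defensins alone it was 0.00124 in J2 and 4.51e-04 in K1, and without mitochondrial genes in the denominator 0.0223 in K1.

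Without TMM the median of all genes moved from 0.00 to -0.13 for DKO against control in input and from -0.02 to -0.40 in K1, and the share of calls that were higher went from 52.4% to 42.1% and from 48.6% to 27.4%. In J2 that share went from 49.5% to 32.6%. The number of genes called ran from 1675 to 6462 in input (reported 5421), 177 to 8635 in J2 (1609) and 1150 to 5819 in K1 (3489). It ran from 0 to 10140 for J2 against input in control (4746), 346 to 7790 in DKO (4088), 281 to 9191 for K1 in control (6324), 3005 to 6366 in DKO (5659), 0 to 6990 and 0 to 3803 for the differences of J2 and K1 (432 and 870), and 0 to 5033 and 0 to 202 for J2 against K1 in control and DKO (0 and 0). DKO pulldowns limit the depth: Defa3 and Defa26 had 0 to 4 counts in each.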

Other observations

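Within the defensins, near-copies had unequal counts, and Defa21 per Defa22 ran from 0.516 to 1.30 over the 12 libraries. The lowest ratio rests on 16 and 31 counts in a DKO K1 library. Defa17 and Defa3 have the same coding sequence, yet Defa17 had 2379 and 3406 counts in control input where Defa3 had 471 and 577. Defa21 and Defa22, 99.28% identical over the coding sequence, had 1571 to 1606 and 1396 to 1426 counts there, and 258 to 281 and 238 to 295 in DKO input. Defa29, whose last coding exon holds 11 cysteine codons, was at 103 CPM ± 2.93 in control input and 7.96 CPM ± 0.0643 in DKO input (SD, n = 2). Pnliprp2 was at 43.1 CPM ± 10.4 in control input and 115 CPM ± 37.9 in DKO input.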
